A study of Drosophila melanogaster with 3 samples.

Results

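Deep intronic peaks are binding peaks whose summit lies inside an annotated gene, outside every annotated exon and more than 2000 bp from the nearest annotated transcript start. In the thresholded (optimal) peak list of rgr (regular), 1946 of 8551 peaks met this rule, which is 22.8% (exact 95% interval 21.9% to 23.7%). The rule uses position alone, so peak strength, replication, sequence and host genes were open to description. The chromatin came from whole wandering larvae of the third instar of Drosophila melanogaster, males and females pooled, of the strain rgr-GFP. This stable transgenic line expresses rgr with GFP fused at its C terminus. All 3 biological replicates belong to this 1 group, were sonicated and were immunoprecipitated with an antibody against GFP, so the comparisons are between kinds of peak and between replicates. Whole animals mix all larval tissues, and the labels do not say which cells contributed to a peak.

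Introns of long developmental genes are known to hold enhancers, stretches of DNA to which transcription factors bind and from which they act on a start some distance away. In flies such genes often have long introns near the 5′ end and more than one start. A binding peak in an intron marks where the tagged protein was recovered with DNA, and does not name the gene on which it acts.

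Sequences of 101 bases centred on the summit are shown first for 6 of the 7 strongest members, all but the one in CG12769, since the later results concern what lies under the summit. They are given 5′ to 3′ on the plus strand of dm6, from the RefSeq copy of the assembly. Capitals mark the word TGTTTAC, which forkhead factors recognise.
CG32486, chr3L:3060746-3060846: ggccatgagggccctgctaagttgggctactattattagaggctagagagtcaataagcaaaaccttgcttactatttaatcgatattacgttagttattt
Tlk, chrX:3742188-3742288: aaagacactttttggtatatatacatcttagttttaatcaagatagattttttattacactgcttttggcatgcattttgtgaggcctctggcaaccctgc
CG13917, chr3L:1591833-1591933: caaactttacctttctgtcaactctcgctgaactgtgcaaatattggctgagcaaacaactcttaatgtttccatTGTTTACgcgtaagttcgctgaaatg
Eip75B, chr3L:18011854-18011954: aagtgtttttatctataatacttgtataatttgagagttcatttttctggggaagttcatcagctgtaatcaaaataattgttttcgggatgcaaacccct
smash, chr3R:4665122-4665222: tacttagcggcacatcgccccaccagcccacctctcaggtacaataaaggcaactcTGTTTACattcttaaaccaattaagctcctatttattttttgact
CG32264, chr3L:3785172-3785272: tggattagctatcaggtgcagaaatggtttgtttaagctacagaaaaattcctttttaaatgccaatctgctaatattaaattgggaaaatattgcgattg
Of these 6 windows, those in CG13917 and smash hold the forkhead word. It was in 4.37% of all member summits, 4.88% of the strongest 389 and 3.44% of all optimal summits. The windows were searched for all 5 words that were more frequent at member summits than beside them, and held no other. A and T bases made up 61.4% of the window in CG32486, 65.3% in Tlk and 60.4% in CG13917. The share was 68.3% in Eip75B and in CG32264, and 58.4% in smash.

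The next windows each show, in capitals, 1 word that was more frequent at member summits than beside them, on either strand. Other words in the same window are left in lower case. The words are GTATNTTT in Raf and S, TATAAA in Hr4 and CG34417, TAATTA in Eip78C and trx, and TGCATACTT in myd and RhoGAP18B.
Raf, chrX:2300662-2300762: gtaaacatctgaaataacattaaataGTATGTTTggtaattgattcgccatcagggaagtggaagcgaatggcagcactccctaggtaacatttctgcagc
S, chr2L:1072336-1072436: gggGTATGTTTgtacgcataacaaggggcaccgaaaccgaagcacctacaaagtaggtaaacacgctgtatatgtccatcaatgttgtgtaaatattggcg
Hr4, chrX:1947707-1947807: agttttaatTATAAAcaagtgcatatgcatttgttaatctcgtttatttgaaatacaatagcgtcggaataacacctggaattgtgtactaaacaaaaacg
CG34417, chrX:6549826-6549926: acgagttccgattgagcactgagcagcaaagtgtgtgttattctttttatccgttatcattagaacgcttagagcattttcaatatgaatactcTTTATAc
Eip78C, chr3L:21253845-21253945: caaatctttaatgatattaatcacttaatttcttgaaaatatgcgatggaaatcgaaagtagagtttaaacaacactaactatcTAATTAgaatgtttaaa
trx, chr3R:14283829-14283929: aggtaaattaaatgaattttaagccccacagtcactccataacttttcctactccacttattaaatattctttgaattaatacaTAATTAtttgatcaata
myd, chr3R:19187764-19187864: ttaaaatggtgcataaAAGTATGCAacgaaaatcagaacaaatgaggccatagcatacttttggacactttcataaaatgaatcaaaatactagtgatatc
RhoGAP18B, chrX:19162341-19162441: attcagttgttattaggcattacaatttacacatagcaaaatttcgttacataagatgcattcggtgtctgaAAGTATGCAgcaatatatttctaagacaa

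The members were spread over the long arms, and the counts by arm were 459 on X, 438 on 3R, 407 on 3L, 339 on 2L and 303 on 2R. No member lay on the small chromosome 4, with 0.445 Mb of deep intronic sequence, or on Y, with 0.937 Mb. The upper limits for those counts of 0 were 8.28 and 3.94 per Mb (exact Poisson, counting error only). Each replicate gave a similar share when its own 8551 strongest entries were classed in the same way. It was 21.7% in replicate 1, 22.5% in replicate 2 and 22.2% in replicate 3 (mean 22.1% ± 0.393, SD, n = 3). The other kinds of peak used below are near intronic (501 to 2000 bp from a start, 1244 peaks), intergenic (over 2000 bp from a start and outside genes, 773 peaks) and promoter peaks (within 500 bp of a start, 3896 peaks). A further 692 peaks fitted none of these.

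The strongest member lay in the first of 7 introns of CG32486, on 3L at 3060796, 5717 bp from the nearest start, which is that of CG16753. Its signal, the authors' own value for a peak, was 3397, and it ranked 10 in the optimal list and 13, 11 and 6 in replicates 1, 2 and 3. The member in Tlk, which encodes the Tousled-like kinase of chromatin assembly, followed on X at 3742238 with a signal of 2565 and ranks of 31, 35 and 33. Ranks were used in place of signal between lists because no scaling between lists is stated. Members in CG12769 (2160), CG13917 (2156) and Eip75B (2052) came next. Eip75B, an ecdysone-induced nuclear receptor gene, held this member in an intron of 65240 bp, 12083 bp from any start, with ranks of 55, 59 and 50.

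The 20 strongest members all had ranks of 199 or better in each replicate. They also lay in Eip78C (1679) and Hr4 (1407), which encode nuclear receptors of the ecdysone response. Chromatin genes among their hosts were trx (1467), the trithorax histone methyltransferase, gpp (1500), the Dot1 methyltransferase, upSET (1585), a SET domain protein, and Tet (1416), the fly member of the Tet family. One member (1667) lay where Su(Tpl), the ELL elongation factor gene, and Mi-2, the chromatin remodeller gene, overlap. The others were in smash (1758), which encodes a protein of epithelial junctions, CG32264 (1686), Raf (1527), the kinase of the Ras pathway, CG42238 (1418), babos (1394), sbb (1364), a corepressor gene, CG9328 (1356) and vri (1346), a bZIP factor of the clock. Hosts are named by position only, and in 36.0% of members (700) the nearest start belonged to another gene. Since the optimal list was called on the same replicates pooled, high ranks in each follow in part from the choice.

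**Figure D1:**
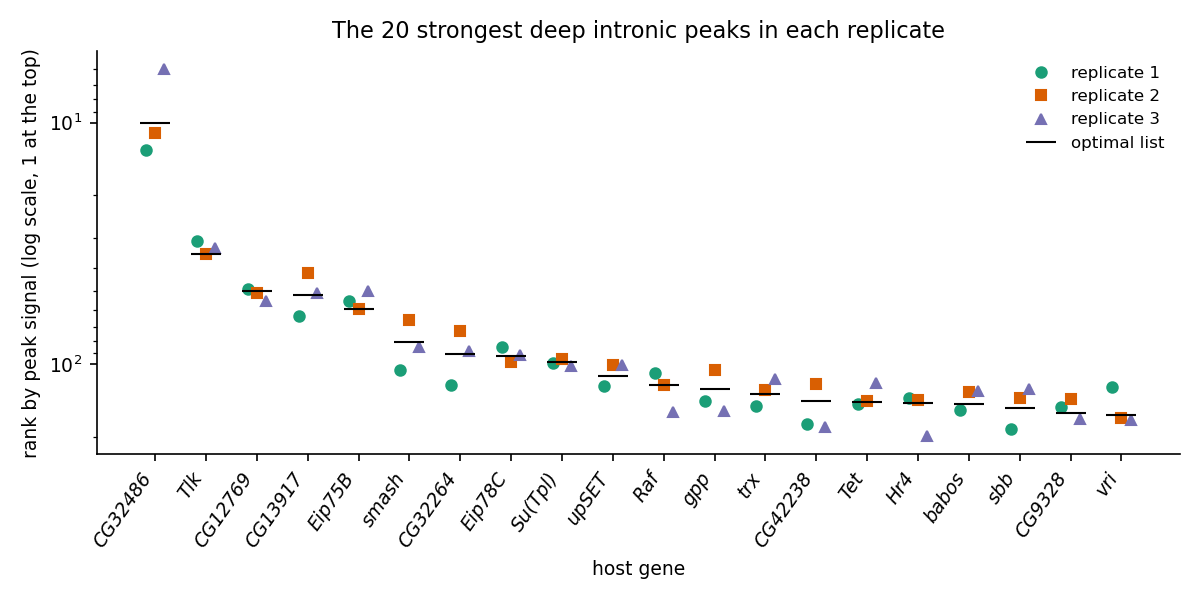
Rank by peak signal of the 20 strongest deep intronic peaks in each replicate's own list (points) and in the optimal list (bars), by host gene, on a log axis with rank 1 at the top. The 3 replicates placed the member in CG32486 at 13, 11 and 6, and every point lies at rank 199 or better.

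Deep intronic peaks were weaker than promoter and near intronic peaks and close to intergenic ones. The median signal was 203, with 131 and 538 at the 10% and 90% points and a maximum of 3397. Among all optimal peaks the 4275 with the higher signal are 50% by construction, and 861 members (44.2%) were among them. The share was 54.2% for promoter peaks (odds ratio 0.671, 95% interval 0.601 to 0.750, adjusted p = 5.49e-12, two-sided Fisher's exact test over peaks). For near intronic peaks it was 52.2% (odds ratio 0.728, interval 0.629 to 0.841, exact adjusted p = 3.85e-05). For intergenic peaks it was 43.3% (odds ratio 1.04, interval 0.874 to 1.23, exact adjusted p = 0.840). The share of members in the upper part of a replicate's own 8551 entries was 44.7% ± 0.716 (SD, n = 3), against 53.7% ± 0.332 for promoter and 51.7% ± 0.416 for near intronic entries. These differences exceed the spread between replicates. For intergenic entries the share was 43.5% ± 0.786, and the replicates of the 2 kinds overlapped (45.3%, 45.0% and 43.9% against 42.6%, 44.0% and 43.9%). With peak width in place of signal, the odds ratio was 0.930 against promoter peaks (exact adjusted p = 0.308) and turned to 1.06 against near intronic peaks (exact adjusted p = 0.531). Width was split at its median of 416 bp, which is also the most frequent width. The split thus separates narrower peaks from those of at least that width and does not rank peaks by strength. P-values here and below treat peaks as units, although neighbouring peaks share chromatin, and do not measure variation between larvae.

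Members became more frequent down the list. They made up 15.8% of the 855 strongest optimal peaks and 29.6% of the 856 weakest, while promoter peaks went from 57.9% to 37.3%. Only 6 members were in the top 1% of the optimal list and 135 in the top 10%. Of 9103 deep intronic entries in the pooled relaxed list, which holds background as well as peaks, 21.4% had passed into the optimal list. That share was 43.4% for promoter entries, 28.1% for near intronic and 18.6% for intergenic entries.

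**Figure D2:**
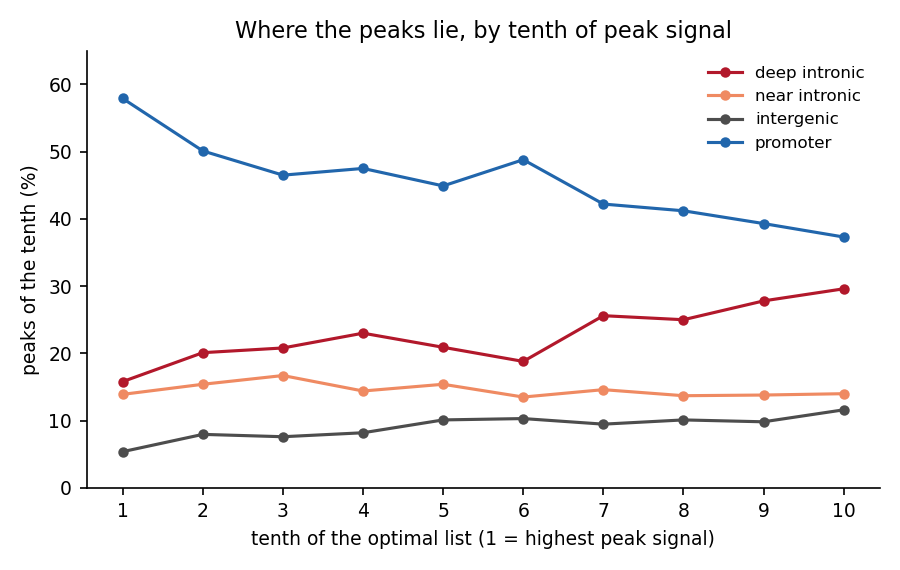
Share of optimal peaks of each kind (percent, vertical) in 10 groups of 855 or 856 peaks taken down the list by peak signal (horizontal, 1 the strongest). Deep intronic peaks rise from 15.8% in the strongest group to 29.6% in the weakest, with a dip to 18.8% in group 6, as promoter peaks fall from 57.9% to 37.3%.

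Most members were found again in each replicate. This follows in part from the choice, since the optimal list was called on the same replicates pooled and thresholded for reproducibility. A summit within 100 bp among the 8551 strongest entries was present in replicate 1 for 80.4% of members, in replicate 2 for 87.3% and in replicate 3 for 77.1%. All 3 replicates held 1206 members (62.0%), against 64.8% of all optimal peaks. Another 436 members were in those lists of 2 replicates, 272 in 1 and 32 in none. The share in all 3 was 67.3% for near intronic peaks (odds ratio 0.792, interval 0.680 to 0.923, adjusted p = 0.00371, two-sided Fisher's exact test) and 66.4% for promoter peaks (odds ratio 0.827, interval 0.737 to 0.927, adjusted p = 0.00203). For intergenic peaks it was 62.1% (odds ratio 0.995, interval 0.834 to 1.19, exact adjusted p = 0.965). The comparison with near intronic peaks missed the threshold without replicate 1 (odds ratio 0.860, exact adjusted p = 0.0985) and with summits matched within 50 bp (0.875, exact adjusted p = 0.104).

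The direction of that difference depended on how deep into a replicate's list a summit was sought. When all 30000 relaxed entries counted, 91.6% of members were found in all 3 replicates, against 88.7% of near intronic peaks (odds ratio 1.40, adjusted p = 0.00969) and 88.4% of promoter peaks (1.44, adjusted p = 2.83e-04, both by Fisher's exact test). Signal moved with it as well. Among the 4275 peaks with the higher signal, a split made after seeing the data, 95.8% of members were in the stronger entries of all 3 replicates, with an odds ratio of 1.83 against promoter peaks (exact adjusted p = 0.00291). Strong pooled peaks are likely to be there by the choice, so the odds ratio rests on the few that were not. Against near intronic (1.59, exact adjusted p = 0.0894) and intergenic peaks (1.38, exact adjusted p = 0.283) the threshold was missed. Among the peaks with the lower signal 35.1% of members were in those entries, with an odds ratio of 0.992 against promoter peaks (exact adjusted p = 0.936). Spearman's rho of ranks over the members, given as a description, was 0.829 between replicates 1 and 2, 0.793 between 1 and 3 and 0.801 between 2 and 3.

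A few members were uneven. The ratio of the highest to the lowest of the 3 ranks had a median of 1.53 over the 1783 members ranked in every replicate, and 90% were at or below 2.43. The largest ratio, 15.4, was at shn, a zinc finger factor gene of Dpp signalling, at 2R 11195050, with ranks of 1878, 28862 and 3391. Another optimal summit lies 199 bp away there. A member in Sin3A, a corepressor gene, had ranks of 24854, 5898 and 1963. In geko the ranks were 3041, 2386 and 25740. A member in kirre ranked 7267, 3709 and 22080 beside a summit 326 bp away, and 1 in mew, an integrin gene, ranked 3025, 1398 and 8239 beside a summit 211 bp away. The strongest members with no match in 1 replicate were in arr, the Wnt coreceptor gene (signal 601, ranks 828 and 886 in replicates 1 and 2), and FER, a tyrosine kinase gene (588, ranks 736 and 791 in replicates 2 and 3). The others were in mew (435), the homeobox gene inv (421) and Egfr (415). In 4 of these 10 cases, those in shn, FER and mew (both members), another optimal summit lay within 211 bp.

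Per length of sequence, deep introns held fewer summits than sequence nearer to starts and more than intergenic sequence. Deep intronic sequence, 42.3 Mb in all, held 46.0 summits per Mb (exact Poisson 95% interval 43.9 to 48.1). In the replicates' own lists the density was 44.7 ± 0.794 per Mb (SD, n = 3). It was 24.6 per Mb in intergenic sequence (replicates 23.8 ± 0.829), 109 in near intronic sequence (108 ± 1.52) and 213 around starts (219 ± 3.22). All these differences were many times the spread between replicates. The totals take in Y, which held no summit of either kind in 0.937 Mb of deep intronic and 2.32 Mb of intergenic sequence.

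Density fell with distance from a start. It was 70.1 per Mb at 2000 to 3000 bp (replicates 69.8 ± 2.05), 63.9 at 3000 to 5000 bp (61.4 ± 1.69) and 54.9 at 5000 to 10000 bp (52.8 ± 1.87). It was 41.3 at 10000 to 20000 bp (39.7 ± 1.35) and 11.1 beyond 20000 bp (11.6 ± 0.665). Intergenic summits were sparser at each distance, from 37.5 per Mb nearest to a start to 3.43 beyond 20000 bp. The longest protein-coding genes with no member were Myo81F (1938 kb of deep intronic sequence), Pzl (699 kb) and lovit (426 kb). Others lay on Y, namely Ppr-Y (242 kb), kl-3 (208 kb) and WDY (206 kb). Position along an arm, such as nearness to a centromere, was not taken into account in the densities by distance or by kind of sequence. In sequence that is not soft-masked for repeats, an alternative added after seeing the data, the density was 46.9 per Mb over all distances, 66.9 at 2000 to 3000 bp and 13.3 beyond 20000 bp. Intergenic sequence was not treated in this way.

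**Figure D3:**
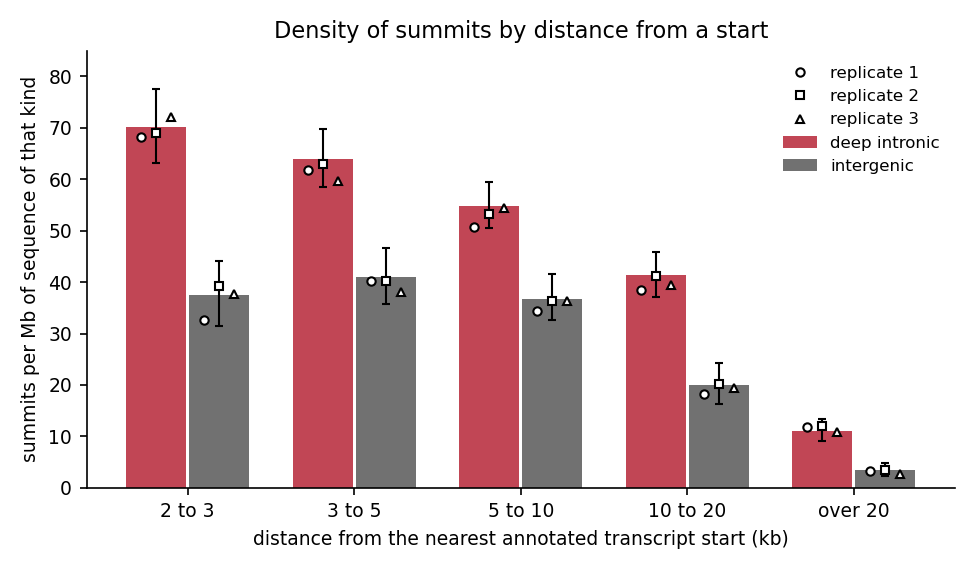
Summits per Mb of deep intronic and of intergenic sequence (vertical) by distance from the nearest annotated start (horizontal, kb). Bars give the optimal list with exact Poisson 95% intervals and open symbols the 3 replicates' own lists. Deep intronic bars fall from 70.1 to 11.1 per Mb and stay above the intergenic ones.

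Among the arms, X had 57.3 members per Mb (interval 52.2 to 62.8), and 3R was the sparsest of the long arms, with 39.0 (35.5 to 42.9). The replicates' own lists gave 57.2, 54.7 and 49.8 per Mb on X, and 37.3, 38.8 and 39.8 on 3R, so these 2 arms did not overlap. For promoter entries on X the replicates spread in the same order, at 241, 218 and 204 per Mb. Intergenic summits showed another order, with 15.7 per Mb on X and 30.6 on 3R. On 2L the member density was 52.1 per Mb (46.7 to 57.9, replicates 49.4, 52.2 and 52.5), and on 3L it was 50.3 (45.6 to 55.5, replicates 45.9, 49.8 and 50.7). X thus overlapped 2L and 3L, both of which were above it in replicate 3. On 2R the density was 42.5. The labels give pooled sexes without the share of each.

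Members lay far inside long introns. The median distance was 5548 bp from a start and 2747 bp from an exon, and 24.3% had another optimal summit within 1000 bp. Of the 1946 members, 1735 were in an intron of a canonical transcript, whose median length was 14905 bp. Over canonical transcripts of all protein-coding genes, first introns held 75.0 members per Mb of their deep intronic sequence (733 members, interval 69.7 to 80.6, replicates 71.8 ± 1.03). Later introns, outside any such first intron, held 34.1 (970 members, interval 32.0 to 36.3, replicates 33.4 ± 0.883). The difference is far above the spread between replicates. First and later introns were not matched for distance from a start, with which density fell. Counted by the 1 host named for each member, noncoding hosts included, 748 members were in the first intron, 541 in the second and 446 in a later one. An annotated transposable element held the summit of 3 members (0.154%), whereas such elements make up 8.19% of deep intronic sequence. The share was as low for near intronic (0.0804%), intergenic (0.129%) and promoter summits (0.103%). How reads that map to more than 1 place were handled is not given, and its part in these shares was not tested. Soft-masked sequence held 448 of the 1946 summits and makes up 24.5% of the sequence.

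The member farthest from any start was in heph, the gene of a polypyrimidine tract binding protein, on 3R at 31878481. It lay 50478 bp from the nearest start, that of RhoGAP100F, with a signal of 347 and ranks of 3689, 1797 and 2028. Next came members in the homeobox gene hth (47619 bp, signal 246), in mgl, the megalin receptor gene (44605 and 43391 bp, both signal 138), and in the zinc finger gene mamo (43480 bp, signal 299). None of these 5 was among the 2000 strongest optimal peaks. Just inside the limit lay members in Ptpmeg2 (2001 bp, signal 146), RhoGAP18B (2003 bp, 599) and CG15611 (2007 bp, 136). Just outside were peaks in rec and CG4576 (2000 bp, signal 208), crol (1998 bp, 284) and Pkn (1997 bp, 126), and the signals on the 2 sides overlapped.

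Host genes were few compared with the genes that offer such sequence. Of 4224 protein-coding genes with any deep intronic sequence, 766 (18.1%) held at least 1 member. Of these genes 1840 have under 1000 bp of such sequence, and 8 of them (0.435%) were hosts. The share rose with length, through 14.1% of genes with 1000 to 5000 bp to 54.5% of those with 50000 bp or more. Density rose from 15.3 members per Mb below 1000 bp through 67.8 to 80.4 at 5000 to 10000 bp, and then fell to 26.9 at 50000 bp or more. The longest group includes Myo81F, Pzl, lovit and the Y genes named above, which held no member. A single member was found in 373 hosts, 2 to 4 in 276, 5 to 9 in 95 and 10 or more in 22. The protein-coding hosts took in 98.0% of members, and the rest lay in noncoding RNA genes only.

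The 12 hosts with the most members held 176 of them (9.04%). kirre, an adhesion gene of myoblast fusion, had 23 members along its 394149 bp on X, with signals from 127 through a median of 236 to 816. Of these, 16 were among the stronger entries of all 3 replicates. Tet had 20 (signals 125, 207 and 1416 as lowest, median and highest), in less deep intronic sequence, 74.8 kb against 288 kb. sbb had 18 (130, 332, 1364) and Eip75B 17 (126, 185, 2052). Snoo, the Ski family gene of Dpp signalling, also had 17 (134, 184, 1004). tara, a nuclear factor gene of the trithorax group, had 13 (133, 179, 1157). The strongest member of each of these hosts was several times its median.

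The other 6 hosts had 11 or 12 members each. Mnt, which encodes a repressor that pairs with Max, had 12 members (143, 326, 477), of which 11 were in the stronger entries of all 3 replicates. hth had 12 (123, 167, 376), of which 4 were. heca (123, 349, 884), ush, a zinc finger cofactor gene (124, 290, 1047), CG43658 (124, 184, 1116) and E2f1, the cell cycle activator gene (125, 230, 514), had 11 each. cv-c also had 11 and was left out of the 12 by its lower summed signal. The weakest signal in each of these 12 hosts was between 123 and 143, and 123 was the lowest of any member. In Eip75B the strongest member ranked 55, 59 and 50, and the member 2730 bp away, with a signal of 601, ranked 916, 1109 and 984, so this intron held peaks of very unlike strength. The tagged gene rgr itself, on 2R, held 2 members, at 8603148 (signal 310, ranks 2392, 2413 and 5520) and 8607295 (signal 371, ranks 1863, 1869 and 4458). The labels do not say whether the tagged copy sits at this locus or elsewhere.

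Hosts were sorted by 18 lists of genes with known roles, described by count and by density beside all protein-coding genes (18.1% hosts, 46.2 members per Mb, where a summit in overlapping genes counts for each). Those genes had a median of only 1.65 kb of deep intronic sequence, and the lists were not matched to them for length. Genes with 5000 to 10000 bp gave 32.8% hosts and 80.4 members per Mb. With 10000 to 20000 bp the values were 44.9% and 66.1, and with 20000 to 50000 bp 50.5% and 53.3. The ecdysone response list, made of hormone receptor and early genes, had hosts in 19 of 21 genes with deep intronic sequence and 124 members per Mb (exact Poisson interval 97.4 to 155). Besides Eip75B, Eip78C and Hr4, its strongest member was in Eip63E, a kinase gene (signal 867, ranks 591, 434 and 301). The Polycomb, trithorax and chromatin list had 11 hosts of 32 and the highest density, 204 per Mb (158 to 259), which was 186 without Tet. Tet held 20 and sbb 18 of its 68 members, and the density without both was not computed. The lists were chosen with earlier results of these data known. Its strongest members were those in Mi-2, trx, Tet and sbb.

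Of the lists of signalling pathways, those described next were above the density of all genes. The Wnt, Hedgehog and Dpp list had 16 hosts of 30 and 149 per Mb (120 to 185), with the strongest members in the receptor gene fz (signal 1051), Snoo (1004), the Dpp receptor gene tkv (958) and shn (952). The Egfr and Ras list had 8 of 16 and 146 per Mb (102 to 202), led by Raf, S, which encodes the Star protein needed for Egfr ligands (1002), and the repressor gene aop (918). Egfr itself had 3 members, the strongest at 516. The JNK and AP-1 list had 4 of 8 and 195 per Mb (101 to 341), with the kinase gene msn (695), the phosphatase gene puc (447), kay, the fly Fos gene (245), and Cka (216). The JAK/STAT list had 3 of 8 and 157 per Mb (88.1 to 260). There the phosphatase gene Ptp61F held 10 of 15 members, and the density without it was 232. Socs36E (306) and Stat92E (134) held the others.

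The Hippo and planar polarity list had 8 hosts of 13 and 109 per Mb (74.9 to 155), with fz, the FERM protein gene ex (860) and the cadherin gene ds (708), whose strongest member lay 39601 bp from a start. The flamingo cadherin gene stan followed (360), and the 9 members in fz were also counted in the Wnt, Hedgehog and Dpp list. The Notch list had 5 of 11 and 98.2 per Mb (59.1 to 153), and 61.0 without the coactivator gene mam, which held 10 of its 19 members. N, kuz and Ser held members with signals up to 819, 516 and 216. The insulin and TOR list had 4 of 11 and 113 per Mb (45.5 to 233), from 7 members in InR (427), Pdk1 (255), foxo (246) and S6k (167). Its interval took in the 46.2 of all protein-coding genes. The circadian clock list had 4 of 10 and 138 per Mb (71.5 to 242), in vri, Pdp1 (350), cwo (247) and sgg (136).

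Muscle genes had 5 hosts of 24 and 84.6 per Mb (53.0 to 128), falling to 52.7 without mew, which encodes an integrin subunit and held 10 of 22 members. Mef2, the myogenic factor gene (501), Zasp52 (346) and if (312) followed. Cytoskeleton and polarity genes had 13 of 28 and 70.2 per Mb (45.8 to 103), an interval that took in 46.2, with sdt (374), crb (299), capu (296) and mbc (277). Patterning transcription factors had 18 of 42 and 69.4 per Mb (53.2 to 89.0), with ush, grh (988), Antp (650) and ct (470). The median deep intronic length was 5.28 kb for muscle, 9.90 kb for cytoskeleton and 13.0 kb for patterning genes. All protein-coding genes of 5000 to 10000 bp had 80.4 members per Mb and those of 10000 to 20000 bp 66.1, close to these lists.

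Below the density of all genes were 5 lists, and for fat body genes and for cyclic nucleotide and calcium signalling the interval took in 46.2. The list of ion channels and receptors of neurons had 3 hosts of 40, Shal (516), nAChRalpha6 (297) and Irk1 (224), and 3.23 members per Mb (0.667 to 9.45). The member in Irk1 was ranked in replicate 3 alone, at 2772. Adhesion and axon guidance genes had 20 of 51 and 36.4 per Mb (29.0 to 45.2), with Ptp61F (1265), kirre (816), Ten-a (723) and Sema1a (577). The 10 members in Ptp61F were also counted in the JAK/STAT list. RNA-binding protein genes had 14 of 27 and 25.2 per Mb (17.9 to 34.4), with heph (1024), mub (850), shep (600) and Syp (573). Cyclic nucleotide and calcium signalling genes had 12 of 30 and 40.8 per Mb (25.9 to 61.3), with Pka-C3 (572), Pkn (442), Pka-C1 (358) and Pde11 (326). Fat body and lipid metabolism genes had 3 of 18 and 42.7 per Mb (8.80 to 125), with Hnf4 (198), bmm (168) and Pect (133). Intervals cover counting error only, members of 1 gene are not independent, and median deep intronic length differed between lists, from 0.597 kb (insulin and TOR) to 31.4 kb (RNA-binding proteins). It was 29.0 kb for adhesion genes and 8.94 kb for ion channels. Some genes were in more than 1 list, so the densities of the lists are not independent either.

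**Figure D4:**
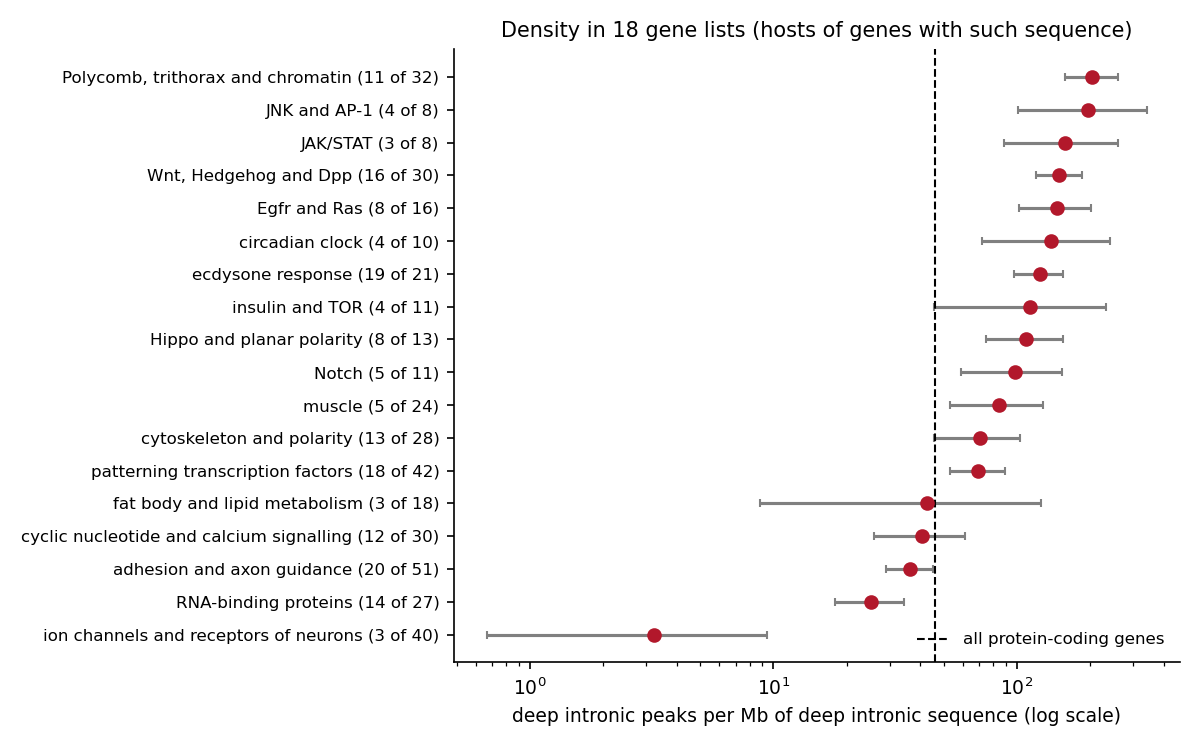
Deep intronic peaks per Mb of deep intronic sequence (horizontal, log scale) in 18 gene lists, with exact Poisson 95% intervals and, in brackets, the genes with a member of those with such sequence. The dashed line marks all protein-coding genes at 46.2. Chromatin genes lie highest at 204 and ion channels lowest at 3.23.

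Member summits were rich in A and T. Within 50 bp of the summit 66.2% ± 8.18 (SD over 1946 members) of bases were A or T, against 55.8% ± 9.24 in a window of the same width 300 bp to the left. The replicates' own lists gave 65.7% ± 0.529 and 55.9% ± 0.163 (SD, n = 3), and 77.4% of members (1507) were richer at the summit. The flank was itself low, since the share was 60.0% at 1000 bp to the left. Summits of intergenic (67.0%) and near intronic peaks (65.2%) were similar, and promoter summits were at 61.6%. By signal the share fell from 68.8% in the strongest 389 members to 64.5% in the weakest 390.

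**Figure D5:**
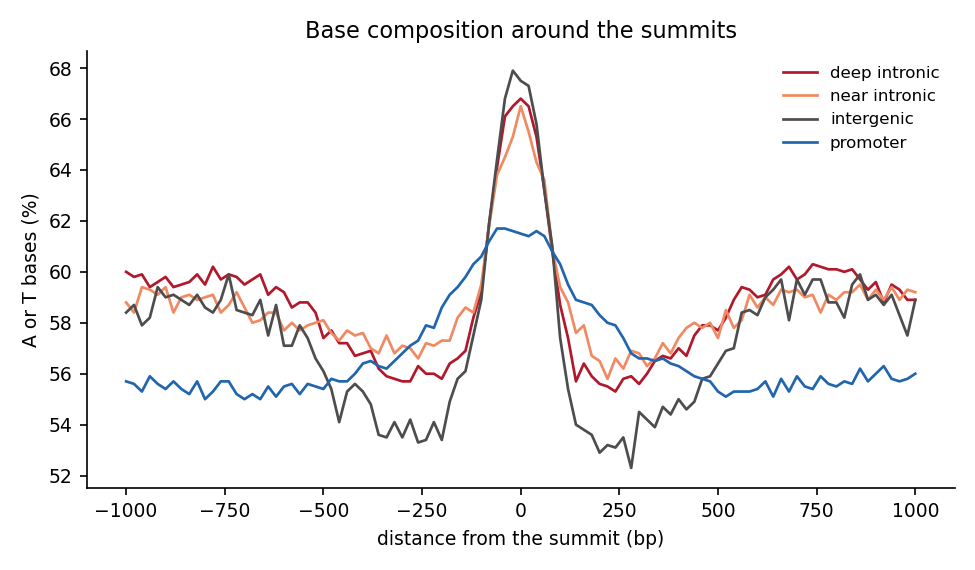
Share of A or T bases (percent, vertical) by distance from the summit (horizontal, bp) for the 4 kinds of peak. Deep intronic summits reach 66.8% at the centre, dip to 55.7% at 300 bp to the left and return to 60.0% at 1000 bp.

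Of 40 words that known factors recognise, each sought on either strand of the 101 bases around a summit, 10 (25%) differed between member summits and flanks, by an exact two-sided McNemar test adjusted over the words. Over all optimal peaks 20 of 40 (50%) did, but with 8551 peaks in place of 1946 smaller differences can be called, so the counts are not directly comparable. Of the 10, 5 were more frequent at summits. TATAAA, the letters of the TATA box, was in 20.6% of summits and 9.30% of flanks (exact adjusted p = 1.31e-21, replicates 20.5% ± 0.432 and 9.79% ± 0.186). It is also 1 of the words of 6 bases described next. TAATTA, a homeodomain word, was in 9.46% and 6.01% (exact adjusted p = 6.60e-04), and the promoter word GTATNTTT, known as Ohler 6, in 5.81% and 3.13% (adjusted p = 6.60e-04). The forkhead word TGTTTAC was in 4.37% and 1.95% (exact adjusted p = 2.32e-04, replicates 4.29% ± 0.431 and 1.94% ± 0.288). The Su(Hw) word TGCATACTT was in 13 summits and 2 flanks (exact adjusted p = 0.0328) and missed the threshold whichever replicate was left out (exact adjusted p = 0.0859 to 0.0955). For words, leaving out a replicate kept only the optimal peaks found among the 8551 strongest entries of both others. That left 1288 to 1407 members, so a lost call can follow from fewer peaks alone.

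Over all optimal summits the shares of these 5 words were 19.0% for TATAAA, 8.53% for TAATTA, 5.43% for GTATNTTT, 3.44% for TGTTTAC and 0.398% for TGCATACTT. At least 1 of them was in 699 member summits (35.9%) and in 19.2% of flanks. TATAAA and TAATTA can overlap, as in the window in Hr4 above, and 39 members held both. GTATNTTT and TGTTTAC can overlap too, and 6 members held both. TATAAA went from 23.7% of the strongest 389 members to 14.6% of the weakest 390, and TGTTTAC from 4.88% to 4.62%.

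The 5 words less frequent at summits were AGGNGGC, part of the CTCF motif (1.18% and 5.60%, exact adjusted p = 1.59e-13), the repeat CACACACA (1.49% and 4.27%, adjusted p = 3.36e-06), the Homothorax word TGACAG (2.00% and 4.11%, adjusted p = 9.46e-04), the GAGA factor word GAGAGAG (1.18% and 2.77%, adjusted p = 0.00186) and the Su(H) word GTGGGAA (0.565% and 1.44%, adjusted p = 0.0379). The Homothorax and Su(H) words missed the threshold whichever replicate was left out (exact adjusted p = 0.104 to 0.178 and 0.116 to 0.244). Over all optimal peaks TGACAG was in 3.20% of both summits and flanks. With the flank 1000 bp away GAGAGAG no longer differed and its direction turned (1.18% and 1.08%, adjusted p = 1.00, exact McNemar test). Words rich in A and T and words rich in G and C moved in opposite directions along with the base composition, and the part of composition in each was not tested.

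The same comparison was made for all words of 6 bases, a word and its reverse complement counted as 1. At member summits 431 (20.7%) were more frequent than in flanks and 739 (35.5%) less frequent. All 36 words made of A and T alone were more frequent, led by ATATTA (19.2% and 5.04%, adjusted p = 1.94e-38, exact McNemar test). None of the words with 2 or fewer A or T bases was, and 22 of 640 with 3 were. The latter were led by ACACTG (6.22% and 3.24%, exact adjusted p = 5.87e-05), GCACTA (3.55% and 1.44%, adjusted p = 9.44e-05) and CACTGA (6.63% and 3.65%, adjusted p = 1.38e-04). ACACTG and CACTGA overlap by 5 bases, and both share the letters CACT with GCACTA.

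Deep intronic summits held 3 words of promoters less often than promoter summits did. Of 40 words, 15 (37.5%) differed from promoter summits (two-sided Fisher's exact test, adjusted over 120 comparisons). The DRE word TATCGATA, bound by Dref at housekeeping promoters, was in 4 members (0.206%) and in 3.93% of promoter summits (odds ratio 0.0504, exact adjusted p = 2.57e-20). CATCNCTA, known as Ohler 7, was in 0.462% and 3.49% (0.128, exact adjusted p = 1.98e-13), and the M1BP word GGTCACAC in 0.411% and 2.90% (0.138, adjusted p = 1.14e-10). The promoter word GTATNTTT (5.81% and 5.47%, exact adjusted p = 0.909) and the Initiator word (7.71% and 7.67%, exact adjusted p = 1.00) missed the threshold. The words CAGCTG and those of CTCF, Homothorax and the GAGA factor were also rarer in members. Words more frequent in members included AAAAAAAA (10.2% and 6.49%, odds ratio 1.64), ATGCAAA of POU factors (5.65% and 3.21%, 1.81), TAATGG of Hox proteins (5.19% and 3.08%, 1.72) and TTTATG of Caudal (13.1% and 9.42%, 1.44). TATAAA (20.6% and 16.8%, 1.28), TAATTA (1.32), TGCATACTT (3.74) and TGANTCA of AP-1 (1.64) completed these, with adjusted p up to 0.0437. Leaving out 1 replicate, with fewer peaks as above, ended the call of the homeodomain and Su(Hw) words each time. It ended that of the TATA box, Hox, POU, GAGA factor and AP-1 words at least once. Without replicate 1, 2 or 3 the odds ratios were 1.39, 1.32 and 1.24 for the homeodomain word. For the Su(Hw) word they were 3.78, 2.77 and 3.88. Among the 4275 peaks with the higher signal 7 words differed.

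Near intronic summits differed from members in 0 of 40 words (0%) by the same test, with TATAAA at 21.3%, TGTTTAC at 4.58% and TATCGATA at 0.161% of them. At an unadjusted p under 0.05, 1 word differed, that of CTCF (1.18% of members and 2.17% of near intronic summits, exact p = 0.0396). The kinds differ in size, with 1244 near intronic, 773 intergenic and 3896 promoter peaks. The numbers of words called against each are thus not directly comparable. From intergenic summits 3 of 40 words (7.5%) differed, all more frequent in members. TGTTTAC was in 4.37% of members and 1.68% of intergenic summits (odds ratio 2.67, exact adjusted p = 0.00410). AAAAAAAA was in 10.2% and 6.73% (odds ratio 1.58, exact adjusted p = 0.0323), and CACACACA in 1.49% and 0.259% (odds ratio 5.83, adjusted p = 0.0323). With windows of 100 bp to each side the odds ratio was 1.34 for CACACACA (exact adjusted p = 0.526) and for AAAAAAAA (exact adjusted p = 0.0651), and both calls were lost. None of the 3 passed among the peaks with the higher signal, where the odds ratio for TGTTTAC was 1.94 (exact adjusted p = 0.406). Without replicate 1, 2 or 3 its odds ratios were 2.47, 2.09 and 2.47, with adjusted p of 0.0643, 0.208 and 0.0566 by Fisher's exact test. With 1 replicate left out, the single call was CACACACA without replicate 3 (exact adjusted p = 0.0306), where no intergenic summit held it.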

How the data were processed

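Chromatin immunoprecipitation and sequencing was done on 3 biological replicates of 1 group, per the labels. The analysis used peak lists the authors deposited on dm6, namely a relaxed list of 30000 entries per replicate, a pooled relaxed list and the optimal list thresholded by the irreproducible discovery rate. The aligner, peak caller and cut-off were not given in the sources used here. The deposited peak signal, of no stated scaling, ranked peaks within a list. The deposited −log10 q-value has a ceiling and was not used. Per the file headers and labels no read counts are given, so depth is unknown. Lists on dm3 were not used here, and columns of other samples numbered 0.

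Genes and starts came from Ensembl release 115 (BDGP 6.54, dm6), without transposable elements, and bases from the RefSeq copy of that assembly. Summits, taken as the start plus the deposited offset, matched within 100 bp. A replicate list was read to its top 8551 entries, the length of the optimal list. Shares were compared with Fisher's exact test, adjusted by Benjamini-Hochberg over 6 class comparisons, and called at 0.05. Each of the 40 words, and every word of 6 bases, was compared with a window 300 bp to the left by an exact McNemar test. Intervals are exact at 95% and cover counting error only.

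The members, the 18 gene lists and the words were chosen with earlier results of these data known. Genes were found by symbol or by a synonym of 1 gene only, and d, Dl, Tor, nos and nemo did not match. The named hosts were those of the 20 strongest members, the 12 with most members, up to 4 per list, the 5 farthest, 3 on each side of 2000 bp, the 10 most uneven and the strongest with each called word. Members of the tagged gene rgr were added after seeing the data. Functions were tested on simulated data. The software was Python 3.11.15 with scipy 1.17.1 and numpy 2.4.6, pandas 2.3.3 for tables and matplotlib 3.10.9 for figures.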

Additional observations from a re-analysis of the deposited data

How the results depend on the processing

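No paired analysis was possible because the labels hold 1 group. The count of 1946 members was 1072 with a limit of 5000 bp and 861 among the peaks with the higher signal. It was 2616 at 1000 bp, 1942 by peak middles and 2038 with protein-coding genes alone. Density moved to 53.0 per Mb at 1000 bp, 36.7 at 5000 bp and 20.3 with the higher signal, and was 30.4 to 33.2 without 1 replicate, which keeps fewer peaks by construction. In unmasked sequence it was 46.9 against the main value of 46.0, a move of more than the SD between replicates (0.794). The 766 hosts became 471 with the higher signal, 451 at 5000 bp and 621 to 646 without 1 replicate.

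The odds ratio for presence in all 3 replicates turned with all relaxed entries, to 1.40 against near intronic, 1.25 against intergenic and 1.44 against promoter peaks. It turned among the peaks with the higher signal to 1.59, 1.38 and 1.83, and was 0.859 and 0.992 against near intronic and promoter peaks among those with the lower signal. It was 0.875 with matching within 50 bp, and 0.754 to 0.860 against near intronic, 0.915 to 1.03 against intergenic and 0.762 to 0.862 against promoter peaks without 1 replicate. For signal, a width of at least 416 bp, the most frequent value, gave 1.06 against near intronic and 0.930 against promoter peaks. Without 1 replicate the ranges were 0.729 to 0.757, 0.986 to 1.05 and 0.674 to 0.730. The cause was not tested.

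Windows of 25 bp to each side called 6 of the 40 words and 768 words of 6 bases, and the flank at 1000 bp called 662 of the latter, against 1170. Without 1 replicate, which keeps fewer peaks by construction, 8 to 9 words and 1020 to 1079 were called. Against intergenic summits 0 words were called with windows of 25 bp and with the higher signal, and 0 to 1 without 1 replicate. Against promoter summits 9 were called with 25 bp, 7 with the higher signal and 9 to 12 without 1 replicate. The direction of GAGAGAG turned with the flank at 1000 bp (1.18%). Of 184 values for single words 63 lost their call and 120 kept it, and an infinite odds ratio for CACACACA gave no value. Depth is unknown, so what it limits cannot be given.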
